A study of Homo sapiens with 12 samples.

Results

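The genes described here are 34 genes of glucose breakdown and of the response to low oxygen, read by their symbols from a table of 59653 symbols. They were chosen by name: 17 enzymes from hexokinase to lactate dehydrogenase, 4 glucose and lactate transporters, 3 regulators of glycolytic flux, 8 hypoxia-inducible genes outside glycolysis, and the alpha subunits HIF1A and EPAS1. All 34 symbols were in the table and 33 passed the filter on low counts; the gene left out is CA9. RNA was sequenced from neurons made from induced pluripotent stem cells of IMR-90, a human fibroblast line. In 6 libraries the cells had received a negative control siRNA (siNC), and in the other 6 an siRNA against ZCCHC17 (siZCC), a zinc-knuckle protein that binds RNA. No other treatment or genotype is given. All libraries come from 1 line, and NPC appears in the sample titles without being spelled out. Dose and duration of the siRNA are not in the labels. Nothing says that replicates were separate cultures, so the p-values measure the spread between these libraries, which may be technical.

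Glycolysis splits glucose into pyruvate in the cytosol and yields ATP without oxygen. Hexokinases trap glucose, phosphofructokinases commit it, aldolases cleave the sugar, and the lower enzymes make pyruvate, which lactate dehydrogenase turns into lactate. When oxygen is short, the alpha subunit of hypoxia-inducible factor (HIF) escapes breakdown, pairs with ARNT and binds hypoxia response elements, whose core reads ACGTG or, as a variant of it in some elements, GCGTG, raising most of these enzymes together with angiogenic, survival and collagen-modifying genes. Neurons take up glucose mainly through SLC2A3 and express ENO2, and in brain ALDOC is known as the aldolase of astrocytes and Purkinje cells.

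To show the elements beside the values, RefSeq promoter windows (GRCh38.p14) were read for 30 of the 34 genes; SLC2A3, SLC16A1, VEGFA and NDRG1 had no entry. In the 250 bases before the RefSeq start, both strands were searched for these core words. Where the first word stands on both strands at once it forms a palindrome, which counts on each. ACGTG was found in 12 of the 30 windows (40%) against 18.7% of all 27305 promoters and 22.2% of the 13340 promoters of genes tested. GCGTG was found in 11 (36.7%) against 31.9% and 42.8%. Either word stood in 8 of the 10 windows of genes that rose, in both windows of genes that fell (LDHA and HIF1A), and in 8 of 17 of genes not called. Over all 30 windows this was 63.3%, against 54.6% of the promoters of genes tested and 43.1% of all promoters, and no test of it was made. A match is a description of letters and not of binding, which was not measured. PFKM and EGLN3, which rose, held neither word in this window. PFKL, ALDOA, ENO2, ADM and P4HA1, which also rose, held 1 match each. The stretches below, on the strand of each gene, belong to 3 genes that rose (ALDOC, HK2, BNIP3), to LDHA, which fell, and to PGK1, for which no difference was detected. These 3 genes that rose held more matches than the others that rose, so they are examples and not typical of them. Capitals mark each core word, read on either strand. Each stretch ends before the first base of the window that GENCODE v29 puts in an exon of the gene, except that of ALDOC, which is cut to a site of 30 bases because its window begins inside an annotated exon. The cut leaves out matches of LDHA, HK2 and ALDOC, and none of BNIP3 or PGK1. In the whole windows ACGTG was found 5 times for LDHA, 2 times for HK2 and 3 times for ALDOC. GCGTG was found 0, 1 and 2 times in these windows. The PGK1 stretch lies inside the annotated gene, in an intron of a transcript that starts farther upstream, at base 77910739.
ALDOC, chr17:28577116-28577145, minus strand: aagtgcccggCACGTGgtaaagggattgtg
HK2, chr2:74833877-74833980, plus strand: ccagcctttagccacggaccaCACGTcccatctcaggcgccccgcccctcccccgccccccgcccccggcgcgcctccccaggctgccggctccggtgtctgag
BNIP3, chr10:131982014-131982173, minus strand: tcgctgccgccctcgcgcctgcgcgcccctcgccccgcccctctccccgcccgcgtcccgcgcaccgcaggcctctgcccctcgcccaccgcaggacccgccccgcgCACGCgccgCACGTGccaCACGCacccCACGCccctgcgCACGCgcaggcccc
LDHA, chr11:18394313-18394387, plus strand: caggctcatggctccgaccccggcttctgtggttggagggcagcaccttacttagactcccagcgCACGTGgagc
PGK1, chrX:78103998-78104173, plus strand: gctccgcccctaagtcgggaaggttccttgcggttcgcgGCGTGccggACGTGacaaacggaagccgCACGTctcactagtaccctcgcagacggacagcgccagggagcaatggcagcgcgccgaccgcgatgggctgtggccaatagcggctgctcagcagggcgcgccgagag

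Each siNC library held between 90755953 and 120023356 counts, and each siZCC library between 76115083 and 105389055. ZCCHC17, the targeted gene, was at 53.99 to 60.99 CPM (counts scaled to library size) in siNC and 9.37 to 10.6 CPM in siZCC. The neuron label was checked with 15 markers: MAP2 was at 1027 ± 104 CPM and STMN2 at 484 ± 37.4 CPM in siNC (SD, n = 6), while the mature marker RBFOX3 was at 1.27 ± 0.148 CPM. Genes of progenitors and glia were abundant in the same libraries, with SOX2 at 621 ± 20.6, GFAP at 616 ± 82.0 and the cycling gene MKI67 at 205 ± 16.8 CPM (SD, n = 6), and 7 of 8 microglial genes stayed under 1 CPM in every library. Between the groups, 18 of 25 proliferation genes were lower and 0 higher, CCNB1 and BIRC5 with the smallest p. Of the neuron markers 7 of 15 were lower, NSG1 and DCX with the smallest p, and 1 was higher, SYT1; without siNC replicate 3, 5 in all were called instead of 8. Progenitor markers had 3 higher (SOX2 and HES5 first) and 1 lower (FABP7) of 11. Mesenchymal markers had 1 higher (PDGFRB) and 5 lower of 10 tested (ACTA2 and TAGLN first), with 3 called in all without siNC replicate 4 or siZCC replicate 4; endothelial markers had 0 higher and 2 lower of 5 (CLDN5 and ESAM), and oligodendrocyte markers 0 higher and 1 lower of 6 (PDGFRA). Of 2 pluripotency markers tested, NANOG was higher, and 4 of 5 were under 1 CPM in every library; the call was lost without siNC replicate 1 or 3, without siZCC replicate 1, 3 or 4, and with no filter on low counts. In bulk RNA, fewer cells of a type and less RNA per cell cannot be told apart, and the part of these shifts in the results below was not tested.

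Of the 33 genes tested, 11 were higher and 2 lower in siZCC with the threshold on the adjusted p at 0.05 (quasi-likelihood test of edgeR, Benjamini-Hochberg adjustment across the 24671 genes that entered it). This is 39.4% of them, where 22.2% of all genes tested were called, 11.4% higher and 10.8% lower. Abundant genes are called more often: at a mean of at least 5 CPM, 32% of all genes and 42.9% of the 28 genes described here were called. The higher genes were HK2, PFKL, PFKM, ALDOA, ALDOC and ENO2 among the enzymes, and BNIP3, VEGFA, ADM, EGLN3 and P4HA1 among the hypoxia-inducible genes; the lower genes were LDHA and HIF1A. Apart from ALDOC, all changes were under 0.3 on the log2 scale. The median log2 fold change was 0.04 over the 33 genes and 0.00 over all genes tested, since 20 of the 33 were not called. The groups did not overlap in 4 genes, ALDOC, HK2, PFKM and LDHA; over all genes tested this held for 9.74%.

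**Figure D1:**
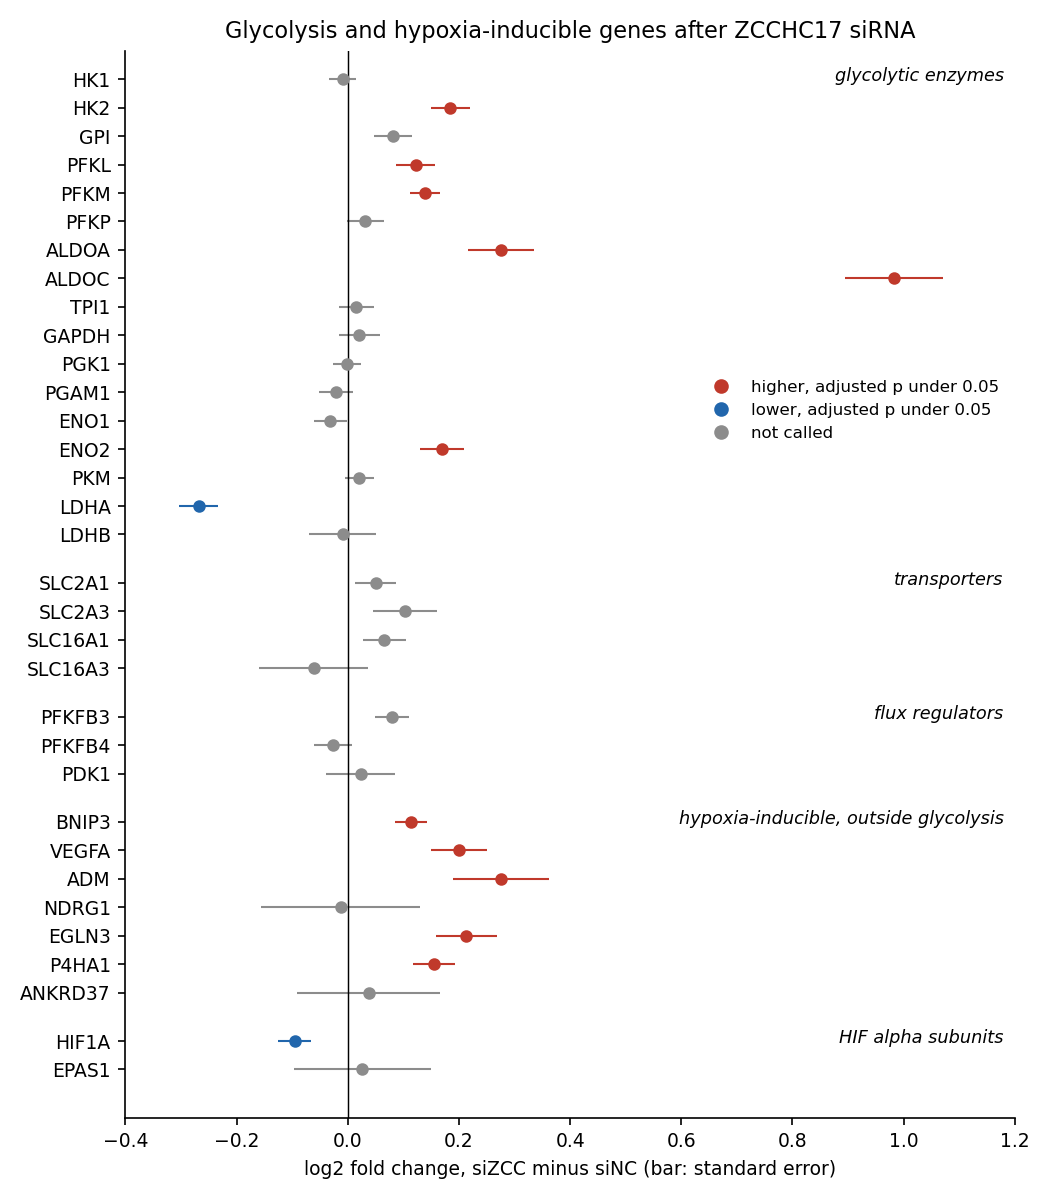
Log2 fold change of the 33 tested genes, siZCC minus siNC (horizontal axis), by role, with bars of 1 standard error. ALDOC at 0.98 stands far to the right, the 5 called hypoxia-inducible genes lie between 0.11 and 0.28, and LDHA and HIF1A are the genes called lower.

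**Figure D2:**
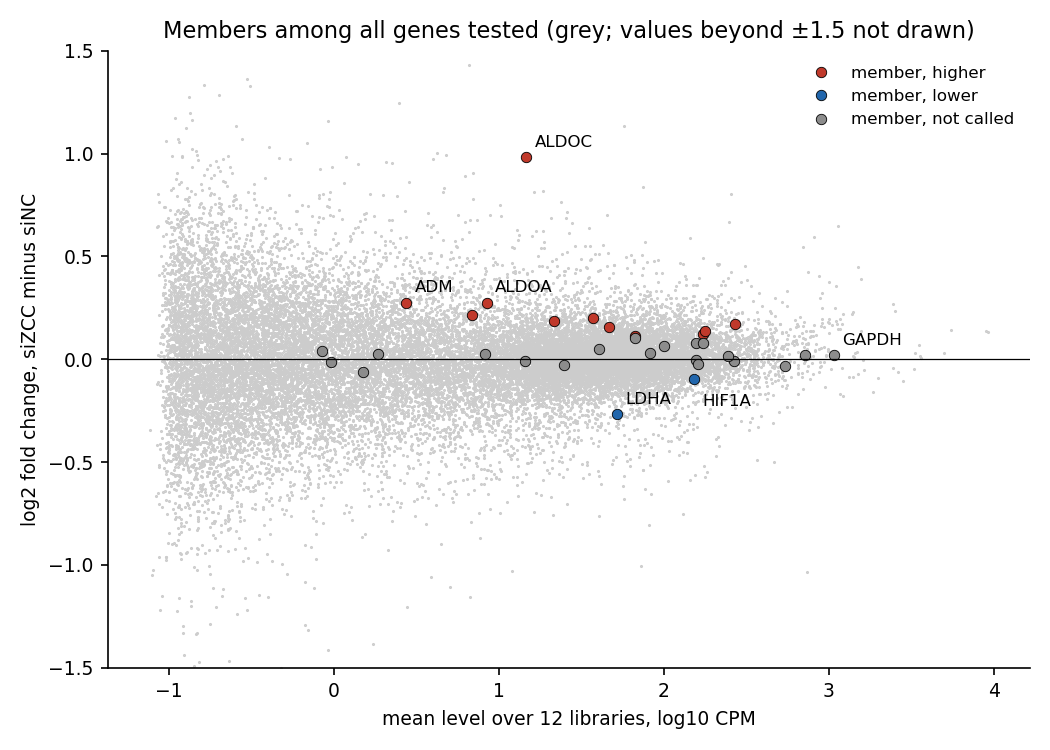
Log2 fold change against mean level (log10 CPM) for all genes tested (grey) with the 33 genes drawn over them. Most of the 33 lie within the grey band, ALDOC lies above its dense part, and LDHA lies below 0 among less dense points.

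Hexokinases catalyse the entry of glucose into the pathway. HK2, the inducible isoform, was at 19.3, 20.2 and 20.97 CPM in siNC (lowest, median, highest of 6 libraries) and at 21.5, 23.1 and 23.95 CPM in siZCC. Each siZCC library was above each siNC library. HK2 rose by 0.18 on the log2 scale (SE 0.0352; edgeR's quasi-likelihood test, adjusted p 0.00128; exact permutation p 0.00216, two-sided, the smallest that 6 against 6 can give). HK1, the constitutive isoform and much the more abundant per length (42.3 against 3.32 CPM per kilobase in siNC), gave -0.01 (95% interval -0.06 to 0.04). GPI, which isomerises glucose 6-phosphate, was at 0.08 (SE 0.0340) and did not pass the test (adjusted p 0.101); without siNC replicate 2 it did, at 0.10 (adjusted p 0.0477).

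Phosphofructokinase, the committed step, has 3 isoforms, of muscle (PFKM), liver (PFKL) and platelet (PFKP) type. PFKM stood at 162, 170.1 and 172 CPM in siNC and at 178, 186 and 191 CPM in siZCC (lowest, median, highest), with no overlap. It rose by 0.14 on the log2 scale (SE 0.0267; edgeR's quasi-likelihood test, adjusted p 0.00139; exact permutation p 0.00216). PFKL rose from 165 ± 7.64 to 179.7 ± 7.60 CPM (SD, n = 6 each), or 0.12 (SE 0.0353; edgeR's adjusted p 0.0193), and exceeded the whole siNC range in 4 of 6 siZCC libraries. After correction for GC content and transcript length the PFKL value was 0.06 and was not called (edgeR's adjusted p 0.148). PFKP gave 0.03 (95% interval -0.03 to 0.10). Exons of PFKM overlap the opposite-strand gene SENP1 over 628 bases, and how the authors' counting treats strand is not given in the sources used here.

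The aldolases split fructose 1,6-bisphosphate. ALDOC (chromosome 17, 28573115 to 28577264, minus strand, GENCODE v29 on GRCh38) was at 8.34, 9.73 and 12.2 CPM in siNC and at 16.5, 18.9 and 23.4 CPM in siZCC. The lowest siZCC library lay well above the highest siNC library. ALDOC rose 1.98-fold, by 0.98 on the log2 scale (SE 0.0877; edgeR's quasi-likelihood test, adjusted p 1.39e-06; exact permutation p 0.00216), and leaving out each library in turn gave 0.93 to 1.05. These values rest on 934 to 1871 counts per library. Since ALDOC is also an astrocyte gene, 11 other astrocyte markers were read beside it: NDRG2, SLC1A3 and ALDH1L1 were higher, CD44 and AQP4 were lower, and 6 including GFAP were not called, with a median of 0.05. Their summed level was 2384 to 2684 CPM in siNC and 2415 to 2846 CPM in siZCC, so the groups overlapped. The part of astrocyte content in the ALDOC result was not tested.

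ALDOA, the ubiquitous aldolase, was at 6.92, 7.63 and 8.35 CPM in siNC and at 8.01, 9.47 and 9.80 CPM in siZCC. In 5 of 6 siZCC libraries it was above every siNC library; siZCC replicate 2 fell inside the siNC range. ALDOA rose by 0.28 on the log2 scale (SE 0.0593; edgeR's quasi-likelihood test, adjusted p 0.00310). Its level was low beside the enzymes that follow, at 1.95 CPM per kilobase against 90.5 for TPI1. In GENCODE v29, 42.3% of its exon bases are shared with AC093512.2, a gene on the same strand whose mean was 6.12 CPM under siNC and 6.00 CPM under siZCC (log2 fold change -0.03, SE 0.0760). How reads in the shared bases were assigned is not given in the sources used here, so the level of ALDOA is uncertain.

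The lower part of the pathway from triose phosphate to pyruvate held the most abundant genes, and 6 of its 7 enzymes gave no detectable difference. GAPDH, often used as a reference gene, was the most abundant of the 34, with a mean of 1065 ± 45.4 CPM under siNC and of 1080.3 ± 58.0 CPM under siZCC (SD, 6 libraries each); its log2 fold change was 0.02 (95% interval -0.05 to 0.09). PGK1, which makes the first ATP and is a standard HIF target, was at 152, 157 and 164 CPM in siNC and at 154, 158 and 162 CPM in siZCC. The groups coincided and the log2 fold change was 0.00 (95% interval -0.05 to 0.05). TPI1, PGAM1, ENO1 and PKM lay between -0.03 and 0.02, with intervals that stayed within -0.09 and 0.08, so changes of the size seen in ALDOC lie outside them. The processed pseudogenes named after GAPDH, 62 in the table, summed to 0.921% of its level, and those of TPI1, PGAM1 and BNIP3 to 1.19%, 1.14% and 2.53% of theirs.

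ENO2, the neuron-specific enolase, was the exception. It rose from a mean of 253 ± 16.2 CPM to 285 ± 11.02 CPM (SD, 6 libraries each), by 0.17 on the log2 scale (SE 0.0398; edgeR's quasi-likelihood test, adjusted p 0.00564). In 4 of 6 siZCC libraries it was above every siNC library. ENO1, the ubiquitous enolase, gave -0.03 (SE 0.0296). Of the 15 neuron markers beside it, 7 were lower, 1 was higher and 7 were not called, MAP2 among the last at 0.01, and their median log2 fold change was -0.14.

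Lactate dehydrogenase closes the pathway, and its A subunit fell. LDHA (chromosome 11, 18394388 to 18408425, plus strand), whose product favours lactate formation, was at 53.6, 57.4 and 60.1 CPM in siNC and at 45.5, 47.3 and 49.0 CPM in siZCC. All 6 siZCC libraries were below all siNC libraries. It fell by 0.27 on the log2 scale, or 16.96% (SE 0.0346; edgeR's quasi-likelihood test, adjusted p 4.55e-05; exact permutation p 0.00216), with -0.29 to -0.25 when each library was left out in turn. LDHB, the subunit of oxidative tissues, gave -0.01 with a wide interval of -0.13 to 0.11. Its mean was 14.4 ± 1.28 CPM under siNC and 14.3 ± 1.06 CPM under siZCC (SD, 6 libraries each). In GENCODE v29, 33.4% of its exon bases are shared with AC010197.2, a same-strand gene at a mean of 0.0333 CPM without TMM scaling. How reads in these bases were assigned is not given, so the level of LDHB is uncertain too. In the same libraries the sum of the 25 proliferation genes was 1420 to 1557 CPM in siNC and 1139 to 1319 CPM in siZCC, so they fell beside LDHA; the part of this shift in LDHA was not tested.

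**Figure D3:**
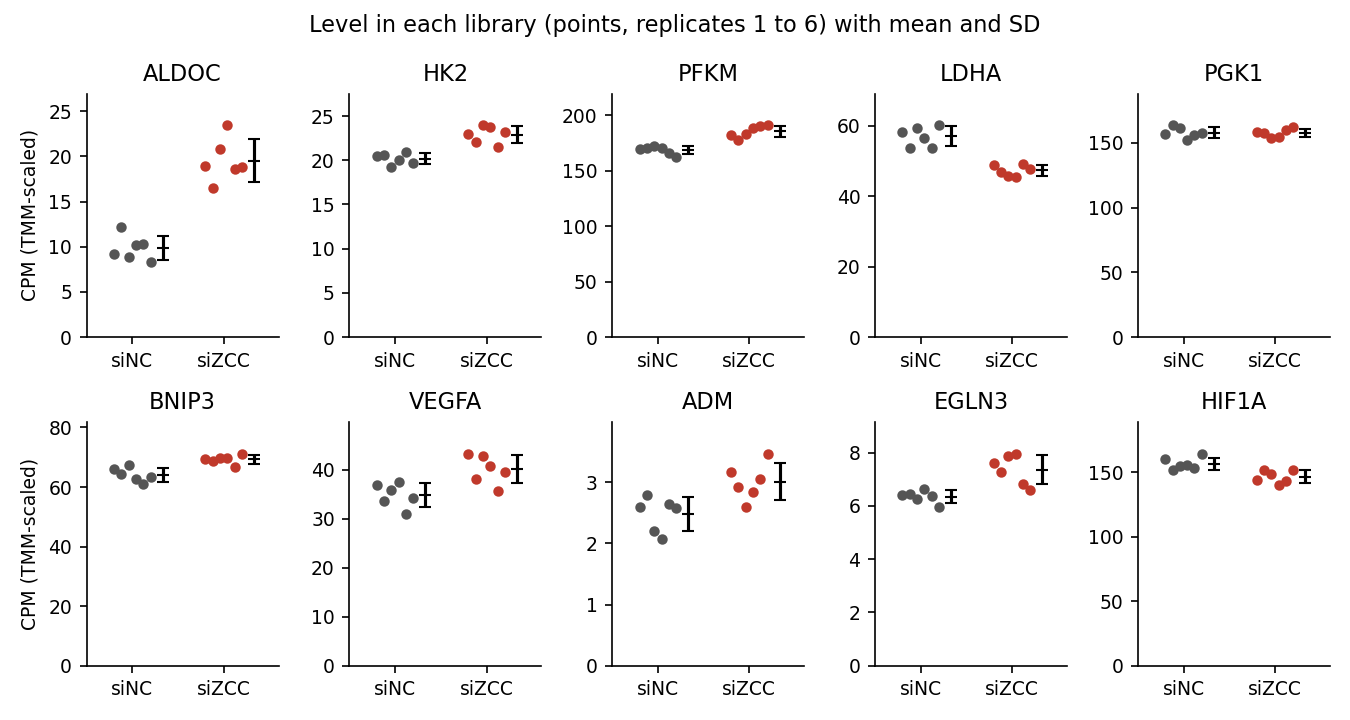
Level in CPM (vertical axes from 0) of 10 genes in each of the 12 libraries (points, replicates 1 to 6 from left to right), with mean and SD. The groups separate in ALDOC, HK2, PFKM and LDHA, coincide in PGK1 and overlap in the others.

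Transporters carry glucose in and lactate out. None of the 4 was called by edgeR's test; at an unadjusted p under 0.05 the count was also 0, as it was with adjustment under DESeq2's Wald test and limma voom. SLC16A1, the monocarboxylate transporter MCT1 and the most abundant of them, had a mean of 98.3 ± 4.37 CPM under siNC and 103 ± 5.81 CPM under siZCC (SD, 6 libraries each; log2 fold change 0.07, 95% interval -0.01 to 0.14). The glucose transporter SLC2A1 gave 0.05 (SE 0.0370), and the lactate exporter SLC16A3, near 1.5 CPM, gave -0.06 (SE 0.0979). Exons of SLC16A3 overlap the far more abundant opposite-strand gene CSNK1D (mean 250 CPM without TMM scaling) over 482 bases, so its low level is uncertain. SLC2A3, the neuronal glucose transporter, was at 61.5 to 71.1 CPM in siNC and 60.8 to 80.2 CPM in siZCC (log2 fold change 0.10, SE 0.0580).

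Of the 3 regulators of flux, 0 were called by edgeR's test, by DESeq2's Wald test or by limma voom; at an unadjusted p under 0.05 the count was 1, PFKFB3. PFKFB3, which makes the activator of phosphofructokinase, was the most abundant, with a mean of 168 ± 4.28 CPM under siNC and 178 ± 6.94 CPM under siZCC (SD, 6 libraries each) and with a log2 fold change of 0.08 (SE 0.0300; adjusted p 0.0676). Without siZCC replicate 2, its lowest library of that group, it was called, at 0.10 (adjusted p 0.0106), and after correction for GC content and length it was called at 0.07 (adjusted p 0.0381). PFKFB4, its paralog, gave -0.03 (SE 0.0343), and PDK1, which inhibits pyruvate dehydrogenase, gave 0.02 (SE 0.0621).

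Outside glycolysis, 5 of the 7 hypoxia-inducible genes tested were higher and 0 lower, with a median log2 fold change of 0.16. That is 71.4% called, against 22.2% of all genes tested and 32% of those at a mean of at least 5 CPM. The 32% is no like share, since ADM, NDRG1 and ANKRD37 lay under that level. The list is short, was chosen with earlier results of these data known, and was not tested as a set. BNIP3, a mitophagy receptor, was the most abundant by CPM, at 60.9, 63.7 and 67.3 CPM in siNC and at 66.8, 69.6 and 71.2 CPM in siZCC. In 5 of 6 siZCC libraries it was above every siNC library, and the rise was 0.11 (SE 0.0290; edgeR's quasi-likelihood test, adjusted p 0.00970). P4HA1, a subunit of the prolyl hydroxylase that matures collagen, rose from 43.9 ± 1.66 to 48.9 ± 2.65 CPM (SD, n = 6 each), or 0.16 (SE 0.0373; edgeR's adjusted p 0.00663).

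VEGFA, the angiogenic growth factor, was at 31.0, 35.1 and 37.5 CPM in siNC and at 35.7, 40.2 and 43.3 CPM in siZCC. The ranges overlapped through siZCC replicate 5, the lowest of its group. The rise was 0.20 (SE 0.0507; edgeR's quasi-likelihood test, adjusted p 0.00907). EGLN3, the HIF prolyl hydroxylase that is itself HIF-induced, was at 5.95, 6.39 and 6.65 CPM in siNC and at 6.60, 7.46 and 7.96 CPM in siZCC, and rose by 0.21 (SE 0.0553; edgeR's adjusted p 0.0105).

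ADM, which encodes the vasodilator adrenomedullin, was at 2.08, 2.59 and 2.80 CPM in siNC and at 2.60, 2.99 and 3.47 CPM in siZCC. In 5 of 6 siZCC libraries it was above every siNC library. Its rise of 0.28 (SE 0.0862; edgeR's adjusted p 0.0292) rests on 190 to 330 counts per library. The call was lost without siNC replicate 3 (0.24), siNC replicate 4 (0.23), siZCC replicate 1 (0.26) or siZCC replicate 6 (0.23), with adjusted p of 0.0639 to 0.0787 in edgeR's test. At the low end, NDRG1 gave -0.01 (95% interval -0.29 to 0.27) and ANKRD37 0.04 (-0.21 to 0.29), both near 1 CPM. These intervals are wide: a rise of the size seen in ADM lay inside that of ANKRD37 and at the edge of that of NDRG1. Exons of ANKRD37 overlap the opposite-strand gene UFSP2 and those of CA9 the opposite-strand gene ARHGEF39, each far more abundant than the gene it overlaps. CA9, a carbonic anhydrase whose RNA marks strong hypoxia in many cells, had 0 to 14 counts per library, with 0.0109, 0.0550 and 0.125 CPM in siNC and 0, 0.0633 and 0.107 CPM in siZCC, and was not tested.

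HIF alpha subunits are regulated mainly as proteins, which were not measured here. HIF1A RNA (chromosome 14, 61695513 to 61748259, plus strand) was at 152, 155 and 164 CPM in siNC and at 140.3, 147 and 152 CPM in siZCC. In 4 of 6 siZCC libraries it was below every siNC library. It fell by 0.10 on the log2 scale (SE 0.0293; edgeR's quasi-likelihood test, adjusted p 0.0267). The call was lost without siNC replicate 1 (-0.09), siNC replicate 6 (-0.08), siZCC replicate 1 (-0.09), siZCC replicate 4 (-0.08) or siZCC replicate 5 (-0.09), with adjusted p of 0.0564 to 0.0813, and after correction for GC content and length (-0.06, adjusted p 0.0596). EPAS1, which encodes HIF-2 alpha and is typical of endothelium and glia, was at 1.28, 1.94 and 2.09 CPM in siNC and at 1.58, 1.80 and 2.41 CPM in siZCC, with a log2 fold change of 0.03 (95% interval -0.21 to 0.27). Per length, EPAS1 was at about 0.251 CPM per kilobase in siNC against 30.4 for HIF1A.

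Among 15 other genes of the HIF pathway, 2 were higher and 3 lower, with a median of 0.00. The 33.3% called are near the 32% of all genes at a mean of at least 5 CPM. CITED4, at 2.77 CPM in siNC, lay under that level and was kept in the list. HIF3A, an alpha subunit that can restrain the others, rose by 0.24 (SE 0.0398) and ARNT, a partner of the alpha subunits, by 0.11 (SE 0.0277). ARNT2, in the same list, was more abundant in siNC (277 against 49.0 CPM for ARNT) and was not called, at 0.04 (SE 0.0362). VHL, which marks HIF alpha for breakdown, fell by 0.11 (SE 0.0242), and CREBBP, a coactivator, fell by 0.14 (SE 0.0363); CUL2, the ligase scaffold, was the other gene called lower. Adjusted p of HIF3A, ARNT, VHL and CREBBP ran from 4.94e-04 to 0.0123 in edgeR's quasi-likelihood test.

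A wider list of 50 other genes known to rise in hypoxia gave a mixed picture. Of the 48 tested, 12 were higher and 8 lower, with a median of 0.03. In this list 41.7% were called, against 22.2% of all genes tested and 32% of those at a mean of at least 5 CPM. Genes under that level were kept in the list, so the 32% is no like share. HMOX1, heme oxygenase, rose by 0.44 (SE 0.0469) and BHLHE41, a transcriptional repressor, by 0.31 (SE 0.0360). TEK, the angiopoietin receptor of endothelium, fell by 0.75 (SE 0.113) and LOXL2, a collagen crosslinking enzyme, by 0.46 (SE 0.0943). For all 4, the adjusted p in edgeR's test lay between 7.87e-06 and 0.00207.

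Other genes of sugar and pyruvate metabolism moved in both directions too. Of 38 tested in a list of 44, 11 were higher and 4 lower, with a median of 0.04. In all 39.5% were called, against 22.2% of all genes tested and 32% of those at a mean of at least 5 CPM. The list itself was not cut at that level, so the 32% is no like share. PCK2, mitochondrial PEP carboxykinase, rose by 0.31 (SE 0.0406), and LDHD, the D-lactate dehydrogenase, rose by 0.68 (SE 0.109) from a low level of 1.72 CPM in siNC. SLC2A6, a glucose transporter family member, fell by 0.26 (SE 0.0412), and PGM2L1, a glucose 1,6-bisphosphate synthase, by 0.23 (SE 0.0659). In a list for the pentose phosphate pathway, which branches off at glucose 6-phosphate, 1 of 11 genes was higher (PGLS, 0.16, SE 0.0411) and 2 were lower. The lower genes, PRPS2 (-0.19) and PRPS1 (-0.09), act on a product of the pathway and are not steps of it. In all, 27.3% of this list were called, near the 22.2% of all genes tested. The 32% at a mean of at least 5 CPM is no like share here. TKTL1 and RBKS, at 1.41 and 1.89 CPM in siNC, lay under that level. Adjusted p of the 4 sugar and pyruvate genes was at most 0.0170 and that of PGLS 0.00957 in edgeR's test.

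**Figure D4:**
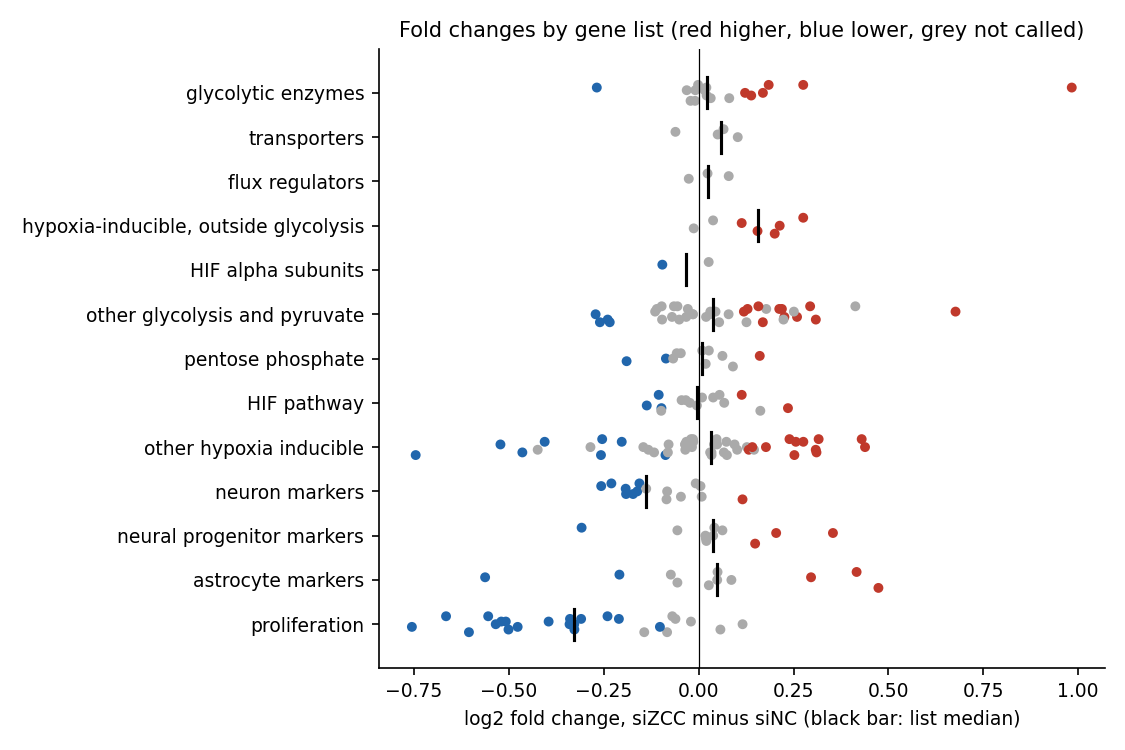
Log2 fold change of each tested gene (points) by list, with black bars at list medians. The hypoxia-inducible genes outside glycolysis have their median at 0.16, the wider lists spread to both sides of 0, and proliferation genes lie mostly below 0, with a median of -0.33.

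Paralogs of 1 step were then set against each other in each library, as ratios of CPM per kilobase, as a description without a test. The ratio of ALDOC to ALDOA was 1.496 to 1.95 in siNC and 2.57 to 3.49 in siZCC, with the reservation on ALDOA above. HK2 to HK1 was 0.0744 to 0.0823 in siNC and 0.0846 to 0.0956 in siZCC. LDHB to LDHA was 0.471 to 0.563 in siNC and 0.579 to 0.688 in siZCC, with the reservation on LDHB above. In these 3 pairs the groups did not overlap, and they did not overlap for ALDOC, HK2 and LDHA alone either. The pairs were chosen with earlier results of these data known. How often ratios of other gene pairs separate the groups was not computed. ENO2 to ENO1 was 0.514 to 0.622 in siNC and 0.612 to 0.681 in siZCC, a slight overlap. For PFKP or PFKL to PFKM, SLC2A3 to SLC2A1, SLC16A3 to SLC16A1, PFKFB4 to PFKFB3 and EPAS1 to HIF1A the ranges overlapped. These lengths are of all annotated exons, so ratios between genes depend on the isoforms used, while the comparison between groups does not depend on the length.

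**Figure D5:**
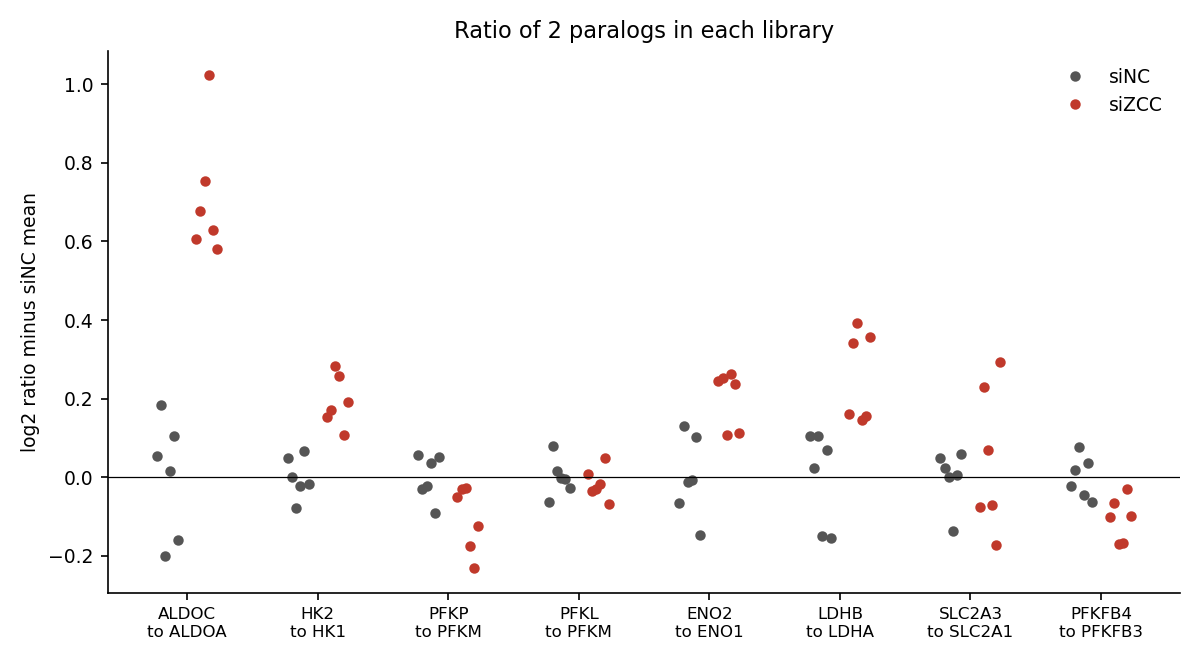
Log2 ratio of the levels of 2 paralogs in each library (points), minus the siNC mean of that pair, for 8 of the 10 pairs. The siZCC points lie above all siNC points for ALDOC to ALDOA, HK2 to HK1 and LDHB to LDHA.

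The libraries also split by IL1B, a cytokine gene that was at 0.0358 to 0.09999 CPM in 3 siNC libraries and 5.23 to 13.0 CPM in the other 3, and likewise in siZCC at 0.0223 to 0.0761 and 5.30 to 15.97 CPM. What separates these sets is not in the labels. Fitted within each set of 6 libraries, all 13 genes called over 12 libraries kept their sign in both sets, though they were chosen on the same libraries; ALDOC rose by 1.05 (SE 0.132) in the high and 0.92 (SE 0.0856) in the low set, and LDHA fell by 0.28 (SE 0.0546) and 0.26 (SE 0.0446). SLC2A3 gave -0.03 (SE 0.0461) in the high and 0.22 (SE 0.0607) in the low set; this difference was not tested. P4HA1 gave 0.09 (SE 0.0483) and 0.21 (SE 0.0439). Each set has 3 libraries a group, and 3 of the 33 genes were called in each.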

How the data were processed

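Per the submitters' processing notes, reads were handled with bcl2fastq 2.17, STAR 2.7.6a and featureCounts 2.0.1 on GRCh38; their roles, the gene annotation used and any strand option are not given in the sources used here. The authors deposited whole-number counts per gene symbol for total RNA made into libraries with a directional kit, per the labels' protocols. The deposited counts went unchanged into edgeR 4.0.16 under R 4.3.3 (filterByExpr defaults, TMM factors, glmQLFit and glmQLFTest over all 12 libraries, no covariates). The Benjamini-Hochberg adjustment ran across the 24671 genes that passed the filter, with a threshold of 0.05. The SE is the size of the log2 fold change divided by the square root of F, and 95% intervals are normal intervals from the SE. They are slightly narrower than intervals on the degrees of freedom of the test would be. CPM are TMM-scaled; log2 CPM use a prior count of 2. Permutation tests are exact over 924 assignments, two-sided. On simulated counts for this comparison (24393 genes tested), 90.9% of genes with a set log2 change of 1 were recovered, 70.8% at 0.5 and 43.9% at 0.25, and 7.5% of calls were false. Only 66, 65 and 66 of the genes tested were changed at these sizes, far fewer than the 5481 called in the data. The adjustment depends on that number, so these shares do not carry over directly to the data. Depth was 76115083 to 120023356 counts per library and the biological coefficient of variation 6.55%, so the spread between libraries sets the precision of most values.

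Symbols were matched to GENCODE v29 (92.2% of 59653) for positions, exon lengths, GC content and overlaps. The members, the lists and the pairs of paralogs were chosen with earlier results of these data known, and no list was tested as a set. Values are given in the lowest, median and highest library for genes that were called and whose groups did not overlap or whose log2 fold change was at least 0.2, and for HIF1A, EPAS1, LDHA, PGK1, VEGFA, BNIP3 and CA9 whatever their values; other members are described if called or the most abundant of their list, and otherwise by their fold change. Of each other list the 2 smallest p-values in each direction with an adjusted p under 0.05 are named. ALDH1L1, CUL2, ARNT2, TKTL1, RBKS and CITED4, and the values of SLC2A3 by IL1B, were singled out after they were seen. Same-numbered replicates did not vary together (correlation of deviations -0.08 to 0.02), so no pairing was used, and 30 pairs of libraries within a group differed by more than counting noise (chi-square per degree of freedom 5.00 to 25.7). Alternatives were DESeq2 1.42.0 size factors or Wald test, upper quartile scaling, 2 other filters, limma 3.58.1 voom, a replicate block, an IL1B block, a GC and length correction, and leaving out each library; separate fits by IL1B were added after seeing the data. The columns of the table all belong to these 12 libraries.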

Additional observations from a re-analysis of the deposited data

Results flagged for a closer look

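For 36 quantities (library totals, ZCCHC17 and the 34 genes), the highest and the lowest of the 6 libraries of each group were compared with the nearest other library. In 5 of 72 groups the gap, as a share of the group's range, was above Dixon's 95% critical value; chance gives about 3.6. In siNC replicate 4 the library summed to 90755953 counts, against at least 109973707 in the other siNC libraries. In log2 CPM, PFKFB3 was low in siZCC replicate 2 (7.36 against 7.47 to 7.53), PFKFB4 in siNC replicate 6 (4.56 against 4.65 to 4.68), EPAS1 in siNC replicate 1 (0.38 against 0.82 to 1.08), and CA9, with 0 counts, in siZCC replicate 2 (-5.65 against -3.78 to -2.98).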

How the results depend on the processing

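Of the 33 genes tested, 13 were called under DESeq2 size factors, upper quartile scaling, limma voom, DESeq2's Wald test, the IL1B block and both other filters, 12 after the GC and length correction, and 11 to 14 when each library was left out. With the replicate block 13 genes were called, and the block changed no call among the 33; over all genes it gave 4902 calls against 5481. No called gene changed sign in any alternative, though every alternative reuses the libraries on which these genes were called, so a change of sign was unlikely. The GC and length correction gave 1 called flux regulator (PFKFB3) and 0 called HIF alpha subunits, and turned PGK1 to 0.0194 and LDHB to 0.0129; the cause was not tested. Leaving out 1 library gave 0 to 1 called flux regulators and 0 to 1 called HIF alpha subunits, and signs turned only for genes near 0: PGK1 -0.0141 to 0.00894, LDHB -0.0383 to 0.0264, PDK1 -0.0179 to 0.0482, NDRG1 -0.0895 to 0.0605, ANKRD37 -0.0430 to 0.118 and EPAS1 -0.0638 to 0.0690. The separate IL1B fits use 6 libraries each, and counts fell with fewer samples: in the high and low sets 2043 and 1602 of all genes, 3 and 3 of the 33, 3 and 2 enzymes, 0 and 1 hypoxia-inducible genes, 0 and 0 HIF alpha subunits, 7 and 8 other sugar and pyruvate genes, 1 and 0 pentose phosphate genes, 1 and 1 HIF pathway genes and 8 and 8 other hypoxia-inducible genes. Signs turned in the high set for PFKP (-6.52e-04), SLC2A3 (-0.0269), SLC16A3 (0.0442), PFKFB4 (0.0193), PDK1 (-0.0700), ANKRD37 (-0.0770) and EPAS1 (-0.164), and in the low set for GAPDH (-0.0196), PGK1 (0.0260), PGAM1 (0.00956), LDHB (0.0876), SLC2A1 (-0.00746) and NDRG1 (0.0590); none of these was called. For genes near 1 CPM the wide intervals limit what can be seen, and the parts of depth and of the spread between libraries in them were not tested.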
